A study of Mus musculus with 8 samples.

Results

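A set of 9 genes of the myostatin and activin receptor pathway were followed in tibialis anterior (TA) muscle of wild-type (WT) and Klotho-null (KL-/-) mice. They were taken by gene symbol from the 12551 genes with deposited read counts, as a set put together with earlier results of these data known, and all 9 were found: the ligand *Mstn*, the type II receptors *Acvr2a* and *Acvr2b*, the type I receptors *Acvr1b* and *Tgfbr1*, the receptor-activated SMADs *Smad2* and *Smad3*, the common SMAD *Smad4* and the inhibitory SMAD *Smad7*. The study asked what loss of Klotho, an aging-related protein made mainly in kidney that acts as an FGF co-receptor and also circulates, does to skeletal muscle. RNA from whole TA muscles of 4 WT and 4 KL-/- male littermates, 7 weeks of age, was sequenced. Both genotypes came from heterozygous Klotho breeders on a mixed background, have no treatment named in the labels, and differ in Klotho in every tissue, so that the allele is not specific to muscle. The transcript of *Kl* was not analysed here, and genotypes rest on the labels.

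Myostatin is secreted by skeletal muscle and restrains its growth, and its loss gives enlarged muscles in mice, cattle and other animals. The propeptide is cut to free the mature dimer, which, like activins and GDF11, binds a type II receptor, most often ACVR2B or ACVR2A. The type II receptor then phosphorylates a type I receptor, ACVR1B or TGFBR1, and this kinase phosphorylates SMAD2 and SMAD3, which enter the nucleus with SMAD4. SMAD7 closes the loop by blocking the type I receptor.

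Libraries held 20860262 to 29273758 counts on genes, and the 9 genes had between 159 and 4727 counts in every library, so all passed the filter on low values. Values are CPM (reads of a gene relative to all counted reads of the library) scaled by edgeR's TMM factors, which were 1.02 to 1.05 in WT and 0.950 to 0.980 in KL-/- libraries, and fold changes are KL-/- over WT. Genes were tested with edgeR's quasi-likelihood test, and the false discovery rate (FDR) was adjusted over all 12551 genes. By the labels 7 libraries share a batch date and KL-/- replicate 3 has its own, so that this animal and its batch cannot be told apart. In whole muscle, fewer cells of a type and less RNA per cell cannot be told apart. The muscle identity of the samples was clear, since 9 muscle markers, among them *Acta1*, *Ckm* and *Ttn*, summed to 121727 to 140079 CPM in WT and 143054 to 178153 CPM in KL-/- samples.

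*Mstn* lies on the forward strand of chromosome 1 at chr1:53061663-53068079 (mm10), in 3 exons. The 250 bases before the start sites of 3 of the 4 genes that passed the test are shown. The promoter of *Smad4*, which also passed, was not examined. E-boxes (CANNTG, the hexamer bound by the MyoD family of muscle regulators and other basic helix-loop-helix factors) are in capitals. The 3 windows are RefSeq sequences of the GRCm38.p6 build, the build of mm10, and each reads 5′ to 3′ toward the gene. *Mstn* is at chr1:53061390-53061639 on the forward strand, *Acvr1b* at chr15:101173822-101174071 on the forward strand and *Smad3* at chr9:63757995-63758244 on the reverse strand.

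Mstn: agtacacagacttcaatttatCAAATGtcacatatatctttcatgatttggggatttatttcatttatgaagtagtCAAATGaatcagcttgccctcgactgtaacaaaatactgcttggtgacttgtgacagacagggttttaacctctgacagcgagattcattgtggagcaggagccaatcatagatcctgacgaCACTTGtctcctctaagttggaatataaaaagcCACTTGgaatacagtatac

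Acvr1b: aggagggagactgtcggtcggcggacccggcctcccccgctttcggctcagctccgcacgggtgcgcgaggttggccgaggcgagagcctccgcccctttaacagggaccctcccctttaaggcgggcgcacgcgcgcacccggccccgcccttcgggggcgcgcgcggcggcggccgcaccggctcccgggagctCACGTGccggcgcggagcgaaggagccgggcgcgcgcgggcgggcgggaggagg

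Smad3: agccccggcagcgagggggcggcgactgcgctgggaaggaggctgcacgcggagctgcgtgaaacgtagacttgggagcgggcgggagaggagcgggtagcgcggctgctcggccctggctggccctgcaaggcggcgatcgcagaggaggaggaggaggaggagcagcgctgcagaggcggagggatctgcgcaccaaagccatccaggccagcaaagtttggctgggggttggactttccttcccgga

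The *Mstn* window was AT-rich, with 38.4% GC and 3 CG pairs, which placed it at the 9.05th percentile of 32851 promoters whose median was 52.4%. *Acvr1b* stood at the other end with 78.8% GC and 42 CG pairs, and *Smad3* had 69.2% and 22. There were 4 E-boxes before *Mstn*, 1 before *Acvr1b* and 0 before *Smad3*, where 66.2% of all promoters held at least 1 and the median was 1. The *Mstn* window also held 1 TATA element (TATAAA), starting 29 bases before the start site and present in 12.4% of promoters, and 2 copies of the short SMAD element CAGAC, present in 42.2%. The palindromic SMAD element GTCTAGAC and the forkhead element GTAAACA were not in it (0.167% and 3.17% of promoters). Motifs were searched on both strands, and neither the TATA element nor the SMAD elements shared a base with an E-box. By these letters the 3 windows differed from each other, and no factor's binding was measured.

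*Mstn* was higher in every KL-/- muscle than in any WT muscle. It was at 47.1, 35.4, 40.2 and 34.2 CPM in WT replicates 1 to 4 and at 75.8, 55.6, 79.3 and 64.0 CPM in KL-/- replicates 1 to 4. KL-/- replicate 2 was the lowest of its genotype and still lay above WT replicate 1, the highest of the other. The fitted ratio was 1.75-fold (95% interval 1.42 to 2.15), a log2 fold change of 0.81 (SE 0.13, edgeR FDR = 0.00736), with a rank of 240 by FDR among all genes. In all 8 fits with 1 sample left out it passed, with log2 fold changes of 0.73 to 0.91. In total 4 of the 9 genes passed, 3 higher and 1 lower in KL-/- muscle, where 14.0% of all genes passed in either direction, 7.35% higher and 6.67% lower. The genotypes did not overlap in the same 4 genes, where this held for 19.7% of all genes.

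**Figure D1:**
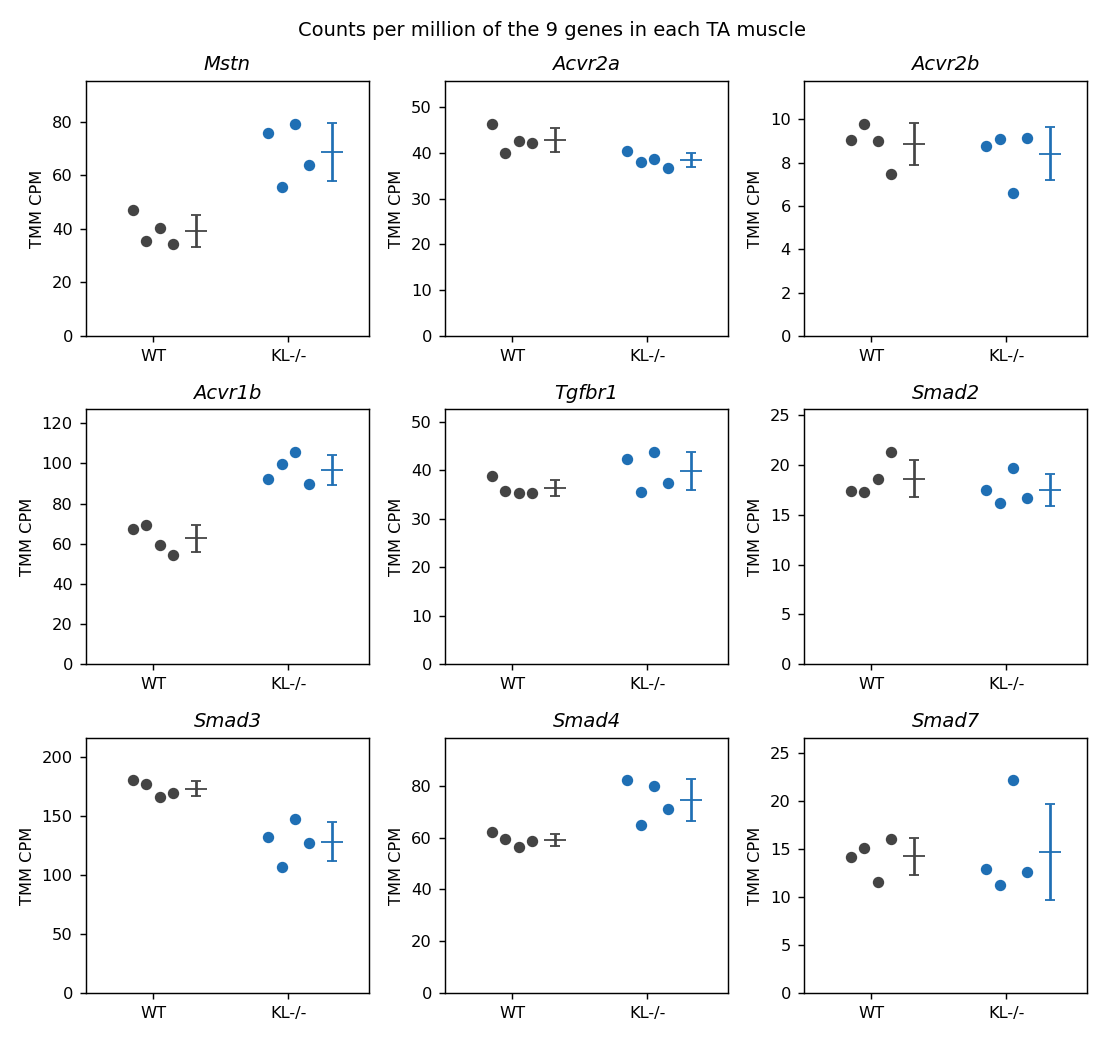
TMM-scaled CPM (vertical axes, from 0) of the 9 genes in each TA muscle, 4 WT (dark) and 4 KL-/- (blue) points per panel in replicate order, with bars for the mean ± SD. WT and KL-/- points do not overlap in *Mstn*, *Acvr1b*, *Smad3* and *Smad4*, and KL-/- replicate 3 stands away from the other KL-/- points in *Acvr2b* and *Smad7*.

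Neither type II receptor passed the test. *Acvr2a* (chr2:48814109-48903264, forward strand), which binds activins with high affinity, was at 46.4, 40.0, 42.6 and 42.2 CPM in WT and at 40.4, 37.9, 38.6 and 36.8 CPM in KL-/- replicates 1 to 4. KL-/- replicates 2, 3 and 4 lay below every WT sample and replicate 1 did not. The log2 fold change was −0.16 (SE 0.064, unadjusted p = 0.0370, edgeR FDR = 0.130), an interval of −18.7% to −0.794%. Scaled by library totals alone it was −0.27 and passed (edgeR FDR = 0.0215). *Orc4*, on the other strand, overlaps 441 bases of the counted exons of *Acvr2a* (7.76% of them), and whether strand was used in counting is not given in the sources used here.

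*Acvr2b* (chr9:119402501-119433506, forward strand), the receptor with the highest affinity for myostatin, was the least counted of the 9 genes, with 159 to 251 reads. It was at 9.06, 9.81, 9.0 and 7.49 CPM in WT and at 8.75, 9.11, 6.59 and 9.16 CPM in KL-/- replicates 1 to 4. The genotypes overlapped, and KL-/- replicate 3 was lowest of all. The log2 fold change was −0.07 (SE 0.13, edgeR FDR = 0.743), its interval ran from −22.3% to 16.7%, and without KL-/- replicate 3 it turned to 0.029. Counting error alone is 7.93% at the lowest count. The counted exons cover 43.3% of the exon bases that GENCODE gives this gene, and 94.5% of the counted bases are coding, so that most of the annotated noncoding exon sequence did not enter its level.

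The 2 type I receptors differed in their response. *Acvr1b* (chr15:101174125-101212601, forward strand), the activin type I receptor, was at 67.4, 69.2, 59.6 and 54.6 CPM in WT and at 92.2, 99.7, 106 and 89.6 CPM in KL-/- replicates 1 to 4. Every KL-/- sample was above every WT sample. The increase was 1.54-fold (95% interval 1.35 to 1.77), a log2 fold change of 0.63 (SE 0.088, edgeR FDR = 0.00473), and it ranked 107 by FDR among all genes. It passed in all 8 fits with a sample left out, at 0.57 to 0.68.

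*Tgfbr1* (chr4:47353305-47414924, forward strand), which serves TGF-β and also myostatin, was at 38.8, 35.7, 35.3 and 35.4 CPM in WT and at 42.3, 35.6, 43.8 and 37.4 CPM in KL-/- replicates 1 to 4. KL-/- replicates 2 and 4 lay within the WT range and KL-/- replicates 1 and 3 above it. The log2 fold change was 0.13 (SE 0.079, edgeR FDR = 0.274), with an interval of −3.04% to 23.8%, and it was 0.015 with library totals. The difference between both receptors was tested as a ratio within each sample, which library scaling cannot move. *Acvr1b* over *Tgfbr1*, in CPM per kilobase of counted exon, was 2.98 ± 0.283 (SD, n = 4) in WT and rose to 4.23 ± 0.447 (SD, n = 4) in KL-/- muscle. All KL-/- ratios, 3.77 to 4.84, lay above all WT ratios, 2.67 to 3.35 (two-sided exact permutation test over 70 relabelings, p = 0.0286, the smallest that 4 against 4 allows, 0.0429 after adjustment over 3 ratios). By contrast *Acvr2a* over *Acvr2b* averaged 1.46 ± 0.196 in WT and 1.40 ± 0.251 in KL-/- samples (SD, n = 4 each), with overlapping samples (two-sided exact permutation test, p = 0.629, adjusted p = 0.629).

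**Figure D2:**
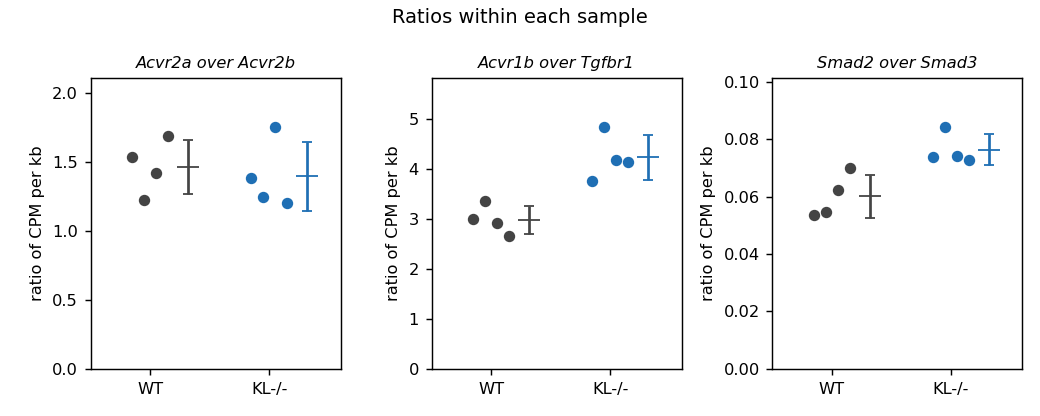
Ratios of CPM per kilobase within each sample (vertical axes, from 0) for the type II receptors, the type I receptors and the receptor-activated SMADs, with 4 WT (dark) and 4 KL-/- (blue) points and bars for the mean ± SD. WT and KL-/- points are apart in *Acvr1b* over *Tgfbr1* (2.67 to 3.35 against 3.77 to 4.84) and in *Smad2* over *Smad3*, and overlap in *Acvr2a* over *Acvr2b*.

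*Smad3* was the only one of the 9 genes that passed in the lower direction with TMM factors, and with library totals *Acvr2a* did too. *Smad3* (chr9:63646767-63757994, reverse strand), a receptor-activated SMAD that can bind DNA, was at 180, 177, 166 and 170 CPM in WT and at 132, 106, 147 and 127 CPM in KL-/- replicates 1 to 4. No KL-/- value reached the lowest WT value. It fell by 25.9% (fold 0.741, 95% interval 0.644 to 0.853), a log2 fold change of −0.43 (SE 0.090, edgeR FDR = 0.0165). It passed in all 8 fits with a sample left out, at −0.51 to −0.34, with FDR values up to 0.0495.

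*Smad2* (chr18:76241701-76311747, forward strand), its partner, was at 17.4, 17.3, 18.5 and 21.3 CPM in WT and at 17.4, 16.1, 19.6 and 16.6 CPM in KL-/- replicates 1 to 4, with overlap. The log2 fold change was −0.093 (SE 0.095, edgeR FDR = 0.530), an interval of −19.1% to 8.64%. *Smad2* over *Smad3* per kilobase averaged 0.0601 ± 0.00754 in WT samples and 0.0763 ± 0.00537 in KL-/- samples (SD, n = 4 each). The ranges were 0.0537 to 0.0698 and 0.0729 to 0.0843, and did not overlap (two-sided exact permutation test, p = 0.0286, adjusted p = 0.0429). The size of this ratio depends on the counted length of *Smad2*, 9142 bases of which 15.3% are coding. Its fold difference between genotypes, 1.27-fold from the means of log2 ratios, does not.

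*Smad4* (chr18:73639013-73703741, reverse strand), the partner shared by all receptor-activated SMADs, was at 62.1, 59.6, 56.5 and 58.7 CPM in WT and at 82.2, 64.8, 79.9 and 71.3 CPM in KL-/- replicates 1 to 4. All KL-/- samples were higher, though replicate 2 exceeded the highest WT sample by little. The increase was 1.26-fold (95% interval 1.11 to 1.42), a log2 fold change of 0.33 (SE 0.080, edgeR FDR = 0.0273). This call was the least firm of the 4. It passed without WT replicate 1 or KL-/- replicate 2, but was lost without WT replicate 2, 3 or 4 (edgeR FDR = 0.0675, 0.0765 and 0.0533) or KL-/- replicate 1, 3 or 4 (edgeR FDR = 0.0554, 0.0784 and 0.0547), at log2 fold changes of 0.29 to 0.35. With library totals it was 0.22 (edgeR FDR = 0.0921), and the 4 genes that passed were then 2 higher and 2 lower.

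*Smad7* (chr18:75367365-75395934, forward strand), the inhibitory SMAD that is itself induced by the pathway, was at 14.2, 15.1, 11.6 and 16.1 CPM in WT and at 13.0, 11.2, 22.2 and 12.6 CPM in KL-/- replicates 1 to 4. One library, KL-/- replicate 3, was the highest of all 8, and 2 of the other KL-/- samples lay within the WT range. The log2 fold change was 0.05 (SE 0.21, edgeR FDR = 0.887) and turned to −0.21 without KL-/- replicate 3, to −0.037 without WT replicate 3 and to −0.068 with library totals. Its interval, −24.8% to 42.6%, was the widest of the 9 genes on the log2 scale. *Smad2*, *Smad4* and *Smad7* lie within 2.67 Mb of each other on chromosome 18.

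**Figure D3:**
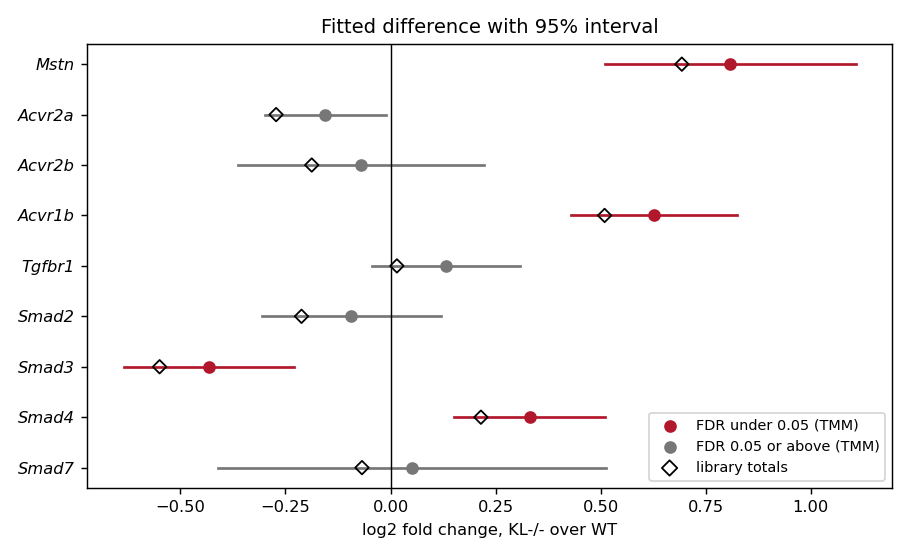
Log2 fold change, KL-/- over WT (horizontal axis), of the 9 genes with 95% intervals from the edgeR quasi-likelihood fit, red where the FDR was under 0.05, and diamonds for the fit scaled by library totals alone. The 3 intervals to the right of 0 in red are *Mstn*, *Acvr1b* and *Smad4*, *Smad3* is red to the left, and every diamond lies to the left of its circle.

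Per kilobase of counted exon, *Smad3* was the most abundant of the 9 transcripts in WT muscle, and *Acvr1b* in KL-/- muscle. In WT the mean levels were 34.0 for *Smad3*, 19.1 for *Acvr1b*, 17.7 for *Smad4*, 14.6 for *Mstn*, 7.54 for *Acvr2a*, 6.41 for *Tgfbr1*, 5.20 for *Acvr2b*, 3.21 for *Smad7* and 2.04 CPM per kilobase for *Smad2*. In KL-/- they were 29.5 for *Acvr1b*, 25.6 for *Mstn*, 25.2 for *Smad3*, 22.3 for *Smad4*, 7.02 for *Tgfbr1*, 6.77 for *Acvr2a*, 4.94 for *Acvr2b*, 3.32 for *Smad7* and 1.91 CPM per kilobase for *Smad2*. *Mstn* thus moved from the fourth to the second place and *Smad3* from the first to the third. In WT, *Smad3* stood apart from its neighbour in every sample, while the ranges of *Acvr1b* and *Smad4* and of *Smad4* and *Mstn* overlapped. In KL-/- the 4 highest genes overlapped each with the next, as did *Tgfbr1* with *Acvr2a* and *Acvr2b* with *Smad7*, so their order there is not fixed. These are levels by description, with no test.

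**Figure D4:**
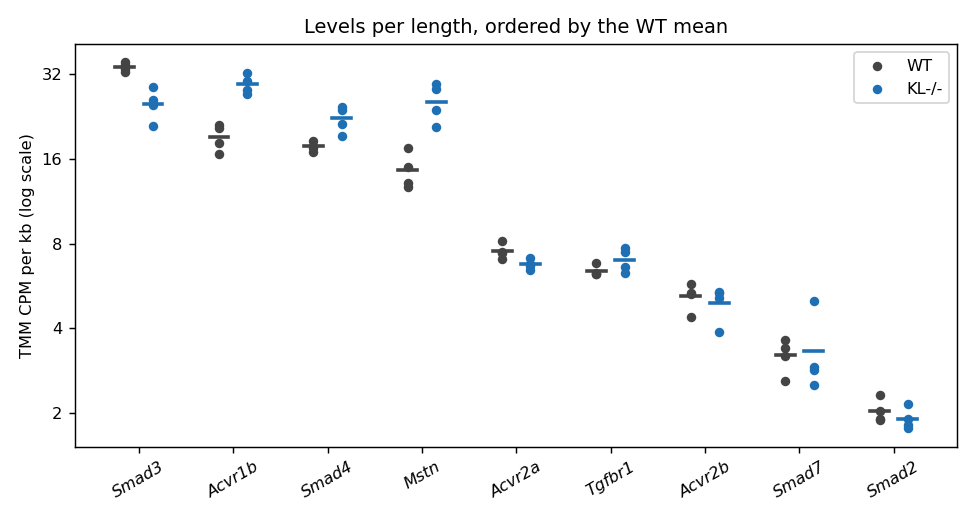
Levels of the 9 genes in CPM per kilobase (vertical axis, log scale) in 4 WT (dark) and 4 KL-/- (blue) samples, with a bar at each mean and genes ordered by the WT mean. *Smad3* lies above the other 8 genes in all WT samples, and in KL-/- samples *Acvr1b*, *Mstn*, *Smad3* and *Smad4* share 1 band between 19.4 and 32.3 CPM per kilobase.

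The place of a sample within its genotype was counted over the 9 genes. Among the 4 KL-/- samples, replicate 2 was the lowest in 6 of the 9 genes (*Mstn*, *Tgfbr1*, *Smad2*, *Smad3*, *Smad4* and *Smad7*), and replicate 3, whose batch date differs, was the highest in 6 (*Mstn*, *Acvr1b*, *Tgfbr1*, *Smad2*, *Smad3* and *Smad7*) and the lowest in *Acvr2b*. Of all genes, 30.1% were lowest in KL-/- replicate 2 and 22.2% highest in KL-/- replicate 3, so these places are a description with no test. Among WT samples, replicate 1 was the highest in 5, replicate 3 the lowest in 4, and replicate 4 the lowest in 3 and the highest in 2. Both *Smad3* and *Mstn* were highest in replicate 3 and lowest in replicate 2 among KL-/- samples, although the genotypes differed in opposite directions for both genes. Without KL-/- replicate 3 the log2 fold changes were 0.73 for *Mstn*, 0.58 for *Acvr1b*, −0.51 for *Smad3* and 0.30 for *Smad4*, and the first 3 passed.

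Of 11044 genes whose average log2 CPM was 1 or more, those whose log2 CPM was most like that of *Mstn* over the 8 samples were *Rufy1* (Pearson r = 0.99), *Acy1* (0.99), *Fam21* (0.98), *Mypn* (0.98) and *Nudt16* (0.98). *Mypn* encodes myopalladin, a sarcomere protein of the Z-line. It was at 353 to 422 CPM in WT and 448 to 526 CPM in KL-/- samples. *Acy1*, an enzyme that removes acetyl groups from amino acids, was at 4.21 to 5.84 CPM in WT and 6.49 to 8.29 CPM in KL-/- samples. The lowest values were those of *Med11*, *Srp54a* and *Tsen34* (each −0.98) and of *Ctsz* and *Yipf7* (each −0.97). *Ctsz*, the lysosomal protease cathepsin Z, was at 25.8 to 31.8 CPM in WT and 19.6 to 23.2 CPM in KL-/- samples. Among the other 8 members r was 0.95 for *Smad4* and 0.89 for *Acvr1b* at the high end, and −0.63 for *Smad3* at the low end. These values include the genotype difference. With genotype means removed, r was 0.79 for *Smad4*, 0.32 for *Acvr1b* and 0.75 for *Smad3*. It was then highest for *Tgfbr1* (0.91) and lowest for *Acvr2b* (−0.30). The 8 samples share 2 genotypes and the names were picked as extremes, so these are descriptions with no test.

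Of 66 further pathway genes, grouped by role, 53 were in the counts, and 9 of them (17.0%) passed, against 14.0% of all genes. Of these, 3 were higher and 6 lower in KL-/- muscle, 44 did not pass, and the median log2 fold change was −0.10, where that of all genes was −0.016. With library totals 14 (26.4%) passed, 1 higher and 13 lower. In that setting 20.9% of all genes passed, 492 higher and 2127 lower. *Inhba*, *Nodal*, *Acvr1c*, *Wfikkn1* and the other 9 were not analysed here. *Skil*, a co-repressor, and *Pmepa1*, a turnover gene, are also in the list of SMAD2 and SMAD3 targets. Each counts as 1 gene in the 66 and the 53.

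*Gdf11*, the ligand closest to myostatin in sequence and a user of the same receptors, was lower in KL-/- muscle, while *Mstn* was higher. It was at 7.10, 6.89, 6.21 and 5.31 CPM in WT and at 2.55, 4.20, 2.69 and 2.75 CPM in KL-/- replicates 1 to 4. No sample overlapped, and the ratio was 0.474-fold, a log2 fold change of −1.08 (SE 0.18, edgeR FDR = 0.00729), which passed in all 8 fits with a sample left out. Per kilobase, *Mstn* exceeded *Gdf11* 3.47-fold to 4.47-fold in WT samples and 8.94-fold to 20.1-fold in KL-/- samples. *Gdf11* counts were low, 65 to 174 reads, and this ratio was chosen after its values were seen. The other 5 ligands counted, *Inhbb*, *Inha*, *Tgfb1*, *Tgfb2* and *Tgfb3*, did not pass, at log2 fold changes of −0.40 to 0.06.

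Of 6 proteases that process the propeptides, *Pcsk6*, a convertase of the furin family, passed, at 15.5 to 26.3 CPM in WT and 5.22 to 13.4 CPM in KL-/- samples (log2 fold change −1.18, SE 0.29, edgeR FDR = 0.0295). *Furin* itself, named after its value was seen, averaged 60.1 CPM in WT and 71.6 CPM in KL-/- samples and did not pass (0.25, SE 0.074, edgeR FDR = 0.051). Of 7 extracellular or sarcomeric binders, *Dcn*, the matrix proteoglycan decorin, was lower, at 256 to 415 CPM in WT and 104 to 223 CPM in KL-/- samples (−0.94, SE 0.24, edgeR FDR = 0.0305). *Tcap*, the Z-disc protein telethonin that binds myostatin inside the fibre, was higher, at 1991 to 2685 CPM in WT and 2996 to 3934 CPM in KL-/- samples (0.46, SE 0.13, edgeR FDR = 0.0399). Follistatin (*Fst*), the best known myostatin antagonist and also named after its value was seen, was at 1.65 to 4.35 CPM in WT and 1.02 to 3.14 CPM in KL-/- samples and did not pass (−0.46, SE 0.38, edgeR FDR = 0.432).

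Among 6 other receptors and co-receptors, *Acvr1*, a type I receptor that signals mainly through the BMP SMADs, passed in the lower direction, opposite to *Acvr1b*. It was at 23.5 to 25.7 CPM in WT and 17.9 to 20.2 CPM in KL-/- samples (log2 fold change −0.33, SE 0.069, edgeR FDR = 0.0166). None of 8 SMAD cofactors and co-repressors passed, at −0.47 to 0.22. Of 11 genes of SMAD turnover and inhibition, *Ldlrad4*, a membrane protein that keeps SMAD2 and SMAD3 from the receptor, passed, at 11.1 to 12.4 CPM in WT and 5.65 to 9.54 CPM in KL-/- samples (−0.74, SE 0.16, edgeR FDR = 0.0176).

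Genes known as targets of SMAD2 and SMAD3 did not move one way. *Ctgf* (also *Ccn2*), a matricellular protein, was at 10.97 to 16.1 CPM in WT and 17.2 to 23.97 CPM in KL-/- samples (log2 fold change 0.62, SE 0.14, edgeR FDR = 0.0238). *Cdkn1a*, the cell cycle inhibitor p21, was at 13.3 to 17.9 CPM in WT and 16.1 to 41.9 CPM in KL-/- samples, with overlap at KL-/- replicate 2 (0.84, SE 0.24, edgeR FDR = 0.0457). *Cdkn2b*, the inhibitor p15, was at 1.15 to 2.36 CPM in WT and lower, at 0.593 to 0.668 CPM, in KL-/- samples (−1.38, SE 0.27, edgeR FDR = 0.0133), on 14 to 51 reads. The other 8 of 11 targets did not pass.

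**Figure D5:**
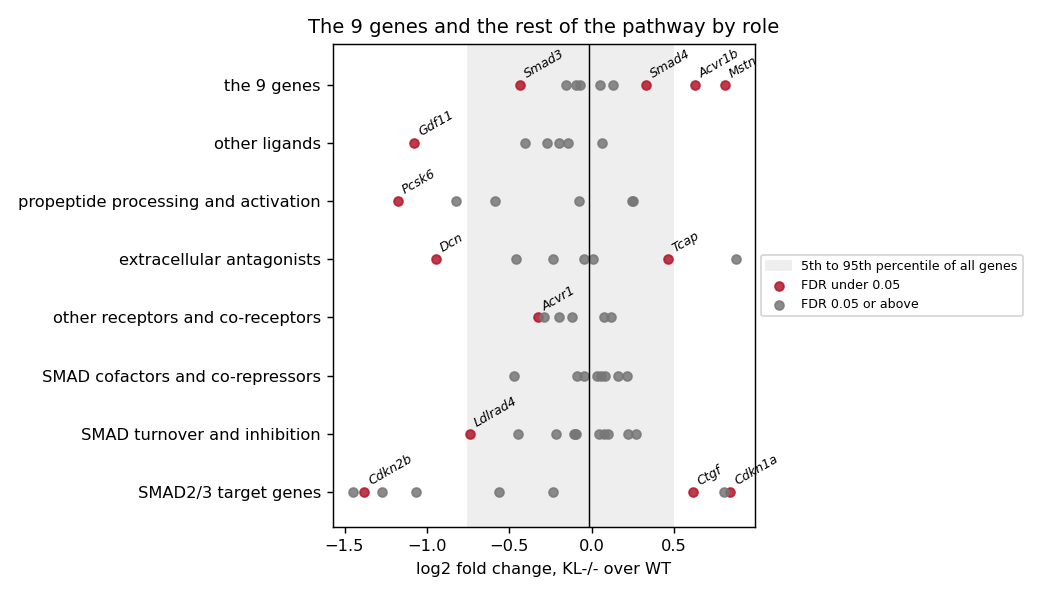
Log2 fold change, KL-/- over WT (horizontal axis), of the 9 genes and of 7 lists of other pathway genes by role, 1 point per gene, red where the edgeR FDR was under 0.05. *Skil* and *Pmepa1* are drawn with the cofactors and the turnover genes, and not again with the targets. The grey band spans the 5th to 95th percentile of all genes, −0.75 to 0.50, and the line marks their median, −0.016. *Mstn*, *Acvr1b*, *Ctgf* and *Cdkn1a* lie to the right of the band and *Gdf11*, *Pcsk6*, *Dcn* and *Cdkn2b* to its left.

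Of these 9 pathway genes, *Gdf11* and *Cdkn2b* passed whichever sample was left out. *Acvr1* was lost without WT replicate 2 or KL-/- replicate 3 (edgeR FDR = 0.0534 and 0.052), and *Ldlrad4* without WT replicate 3, KL-/- replicate 3 or KL-/- replicate 4 (edgeR FDR = 0.0532, 0.0509 and 0.0522). *Ctgf* was lost without WT replicate 3 or KL-/- replicate 1, 3 or 4 (edgeR FDR = 0.0705, 0.0511, 0.0525 and 0.069). *Pcsk6* was lost without WT replicate 2 or 3 or KL-/- replicate 3 or 4 (edgeR FDR = 0.0719, 0.0816, 0.0678 and 0.0821), and *Dcn* without WT replicate 1, 2 or 3 or KL-/- replicate 3 or 4 (edgeR FDR = 0.052 to 0.0873). *Tcap* and *Cdkn1a* each passed only in the fit without KL-/- replicate 2, with edgeR FDR values of 0.0601 to 0.109 and 0.0719 to 0.122 in the other 7 fits.

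Some markers of other cells also passed the test, where 7.35% of all genes passed in the higher and 6.67% in the lower direction. All 6 fibroblast markers, of which *Dcn*, *Col1a1* and *Col3a1* are also in the pathway lists, summed to 732 to 2879 CPM in WT and 374 to 1275 CPM in KL-/- samples, and 3 passed in the lower direction. The 5 endothelial markers summed to 369 to 556 CPM in WT and 332 to 366 CPM in KL-/- samples (1 of 5 lower), and the 6 macrophage markers to 28.3 to 65.8 and 23.0 to 42.2 CPM (2 of 6 lower). The 5 Schwann cell markers summed to 31.2 to 56.7 CPM in WT and 63.1 to 81.4 CPM in KL-/- samples, and 3 of 5 were higher. Satellite cell markers (0 of 4 passed) summed to 12.8 to 22.8 and 20.1 to 28.8 CPM, and the 2 adipocyte markers counted of 4 to 5.87 to 21.8 and 4.48 to 57.4 CPM.

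*Mstn* is made chiefly by fast glycolytic fibres, and the myosin of these fibres, *Myh4*, was at 32439 to 37575 CPM in WT and 42976 to 62798 CPM in KL-/- samples without overlap (1.38-fold, log2 fold change 0.46, SE 0.21, edgeR FDR = 0.155). The fast myosins *Myh1* (−0.31, edgeR FDR = 0.246) and *Myh2* (0.57, edgeR FDR = 0.613) did not pass either. Among KL-/- samples replicate 2 had the highest *Myh4* and the lowest *Mstn*, *Myh1* (11209 CPM) and *Myh2*. Its *Myh2* was at 292 CPM, where the other KL-/- samples were at 3445 to 5441 CPM. With genotype means removed, r with *Mstn* was −0.44 for *Myh4*, 0.86 for *Myh1* and 0.44 for *Myh2*, as a description. The part of fibre type and of the other cells in the levels of the 9 genes was not tested.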

How the data were processed

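RNA from whole TA muscle of 4 WT and 4 KL-/- male mice was sequenced by the authors, who used STAR with the mm10 genome, dropped alignments of low quality and obtained a count for each gene from featureCounts. The deposited values are these raw counts with the counted exon length of each gene, and the annotation used is not given in the sources used here. The methods speak of mRNA sequencing and the labels of total RNA. Counts were analysed here in R 4.3.3 with edgeR 4.0.16, whose filter on low counts kept all 12551 genes. The quasi-likelihood test used TMM factors, genotype as the only term and Benjamini-Hochberg adjustment over all genes, with an FDR under 0.05. SE values were derived from the test statistic. CPM per kilobase divides CPM by the counted length.

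Replicates are separate mice by the labels, and no library repeated another. Replicate numbers were not used to pair the samples in the main test. The test was checked on simulated counts. Ratios were compared with exact permutation tests. Alternatives were RLE factors, library totals, a minimum of 10 counts in every sample, no filter, DESeq2 1.42.0, the likelihood ratio test, limma-voom (limma 3.58.1), the legacy quasi-likelihood test, the replicate block and each sample left out. The 9 genes and the lists were chosen with earlier results of these data known. The genes named are the 9, every listed pathway gene under the FDR threshold, the 5 genes most and the 5 least correlated with *Mstn* (log2 CPM, prior count 2), and *Myh4*, *Myh1* and *Myh2*. The TATA element, the *Mstn* over *Gdf11* ratio, *Furin* and *Fst* were added after values were seen. Promoters were examined for the 6 of the 9 genes that lie outside chromosome 18, so those of *Smad2*, *Smad4* and *Smad7* were not.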

Additional observations from a re-analysis of the deposited data

Results flagged for a closer look

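Of 36 sets of 4 samples (the 9 genes and the 9 pathway genes that passed, in each genotype), 6 held a sample far from the other 3, beyond Dixon's 95% critical value, which chance gives in about 1 in 20 sets. *Acvr2b* was at 6.59 CPM in KL-/- replicate 3, where the others were at 8.75 to 9.16 CPM. *Smad7* was at 22.2 CPM in the same library, where the others were at 11.2 to 13.0 CPM. *Tgfbr1* was at 38.8 CPM in WT replicate 1, where the others were at 35.3 to 35.7 CPM. *Gdf11* was at 4.20 CPM in KL-/- replicate 2, where the others were at 2.55 to 2.75 CPM. *Tcap* was at 1991 CPM in WT replicate 3, where the others were at 2597 to 2685 CPM. *Acvr1* was at 25.7 CPM in WT replicate 2, where the others were at 23.5 to 23.8 CPM.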

How the results depend on the processing

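Between 3 and 4 of the 9 genes passed under every alternative, where leaving out a sample gave 3 to 4. The fit with no filter repeated the main fit, since the filter kept all 12551 genes, so its refits could not differ. Of 153 refits of single members, 140 kept direction and side of the threshold, 8 lost the call (all *Smad4*), 1 gained it (*Acvr2a*, library totals) and 4 reversed, all in genes that did not pass: *Smad7* to −0.068 with library totals and within −0.21 to 0.17 over the samples left out, and *Acvr2b* within −0.14 to 0.029. *Mstn* ranged from 0.73 to 0.91 over the samples left out. With library totals the all-gene median log2 fold change went from −0.016 to −0.13. Of the genes called, 52.4% were higher with TMM factors and 18.8% with library totals. The latter moved the levels per kilobase of *Smad3* and *Smad4* in WT to 35.4 and 18.5 CPM per kilobase. Over all genes 1759 passed, 762 (without KL-/- replicate 3) to 2755 (without KL-/- replicate 2) with a sample left out. Of the pathway genes 9 passed, 14 with library totals, 15 with DESeq2 and 2 (without KL-/- replicate 3) to 13 (without KL-/- replicate 2) with a sample left out. Of all genes, 20.9% passed with library totals and 19.6% with DESeq2. The share was 6.07% without KL-/- replicate 3 and 22.0% without KL-/- replicate 2. Same-numbered samples correlated at −0.37 to 0.18, and 1 of 8 correlated best with its own number. No pairing by number was seen, but with 4 samples per genotype this check is too weak to exclude one. The replicate block left 671 genes, 4 pathway genes and 3 of the 9 genes, without *Smad4* (edgeR FDR = 0.0642), and *Smad3* was at 0.0494. Exact sign flips within numbers gave p = 0.125, the smallest that 4 pairs allow, for *Acvr1b* over *Tgfbr1* (log2 difference 0.50) and *Smad2* over *Smad3* (0.35) in the replicate block. With a sample left out these ratios are values with no test. The cause of these shifts was not tested. *Acvr2b* rests on 159 to 251 reads per library.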
